A study of Mus musculus with 6 samples.

Results

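The Notch pathway genes followed here between reporter-positive and reporter-negative cells of the embryonic mouse genital tubercle, the outgrowth that forms the external genitalia, were the receptors Notch1, Notch2 and Notch3, the ligands Jag1, Jag2 and Dll1, the modifier Lfng, and the targets Hes1, Hey1 and Nrarp. The 10 genes were chosen by name, and every probe set annotated to them alone was taken, 18 of the 45037 probe sets on the array that are not controls, and 10 of 18193 named genes. The tissue came from embryos of mixed background at 12.5 days post coitum (Theiler stage 20) that all carried both Shhtm1(EGFP/cre)Cjt, which makes a fusion of green fluorescent protein and Cre recombinase from the Shh locus, and Gt(ROSA)26Sortm3(CAG-EYFP)Hze, a yellow reporter that Cre switches on for good. The reporter-positive fraction, labelled urethral epithelium, therefore holds cells that express Shh or descend from such cells. The reporter-negative fraction, also from the tubercle, holds the cells without either fluorescence. Cells were freed with trypsin and sorted on both reporters. Each fraction had 3 arrays, and each array held RNA pooled from littermates of both sexes, 3, 5 and 2 embryos for replicates 1, 2 and 3 of either fraction.

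Notch signalling passes between touching cells. A ligand of the Jagged or Delta kind on one cell pulls on a Notch receptor on its neighbour, the receptor is cut, and its freed inner part enters the nucleus, where it joins the DNA-binding protein Rbpj and a Mastermind co-activator. Genes of the Hes and Hey families and Nrarp are then transcribed. In epithelia the pathway is known for setting apart neighbouring cell fates, and in blood vessels for arterial identity and the coating of vessels by mural cells.

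The arrays were unequal in brightness. The median deposited signal was 1.83 to 7 in the negative arrays and 3.78 and 2.99 in positive replicates 1 and 2, but 0.28 in positive replicate 3. Background was taken as the brightest control probe set for bacterial transcripts that had not been added, 2.03 to 8.28 in the other 5 arrays and 1.12 in positive replicate 3. Of the 18 probe sets of the 10 genes, 10 to 12 lay above it in each of the other 5 arrays and 4 in positive replicate 3. Of all 45037 probe sets, 38.4% to 54.2% lay above it in the other 5 arrays and 23.0% in positive replicate 3. That array's rank correlation with the others, across probe sets, was 0.30 to 0.32, against 0.67 to 0.82 among the other 5. The 10 genes are therefore compared over the 6 arrays and over the 5 without positive replicate 3. Several values of other genes and of marker lists are given over the 5 alone, where this is said. Markers of the labelled tissue were measured too: all 9 epithelial markers, among them Shh, Krt8 and Cdh1, were higher in the positive arrays of the 5-array comparison (limma, adjusted p under 0.05). The summed normalized signal of 8 mesenchymal markers was 2500 to 3302 in the negative arrays and 2808, 299.8 and 467.3 in positive replicates 1, 2 and 3, so that of positive replicate 1 lay within the range of the negative arrays.

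Hes1 was the only one of the 10 genes to pass the test, and it did so without positive replicate 3. Levels are given as normalized log2 signal, the log2 of the quantile normalized signal plus 16, on which a probe set without signal reads about 4, and a difference on this scale is called a log2 difference. The main probe set of a gene is the one with the highest mean over the 6 normalized arrays. Over the 5 arrays Hes1 was higher in positive cells by 1.77 (SE 0.32, 95% interval 1.10 to 2.45, adjusted p = 0.0118, limma with Benjamini-Hochberg adjustment). In the 6 arrays none of the 10 passed, and Hes1 differed by 1.12 (SE 0.49, 95% interval 0.04 to 2.20, adjusted p = 0.770, limma). By their main probe sets Jag2, Nrarp, Notch1 and Notch3 had positive differences and Jag1, Hey1 and Notch2 negative ones in both comparisons, without passing. Lfng was not above background on any array.

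The counts for these genes stand beside those for the whole array. A low-signal filter left 31526 probe sets to test and 16 of the 18 here, which belong to 9 of the 10 genes. Both Lfng probe sets fell below it. In the 6 arrays 0 of the 16 passed an adjusted p of 0.05 (limma), where 0.0127% of all tested probe sets did. At an unadjusted p under 0.05 there were 3 of the 16, against 4.25% of all, and for 4 the values of the 3 positive and 3 negative arrays did not overlap, against 12.2% of all. In the 5 arrays 1 of the 16 passed, against 0.441% of all, 5 had an unadjusted p under 0.05, against 7.6% of all, and 6 had values that did not overlap, against 22.8% of all. The median log2 difference of the 16 was 0.05 in the 6 arrays and 0.13 in the 5, and that of all tested probe sets was -0.004 and -0.007. Probe sets of the same gene read the same transcript, so they are not independent. In a sorted fraction, fewer cells of a type and less RNA per cell cannot be told apart.

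**Figure D1:**
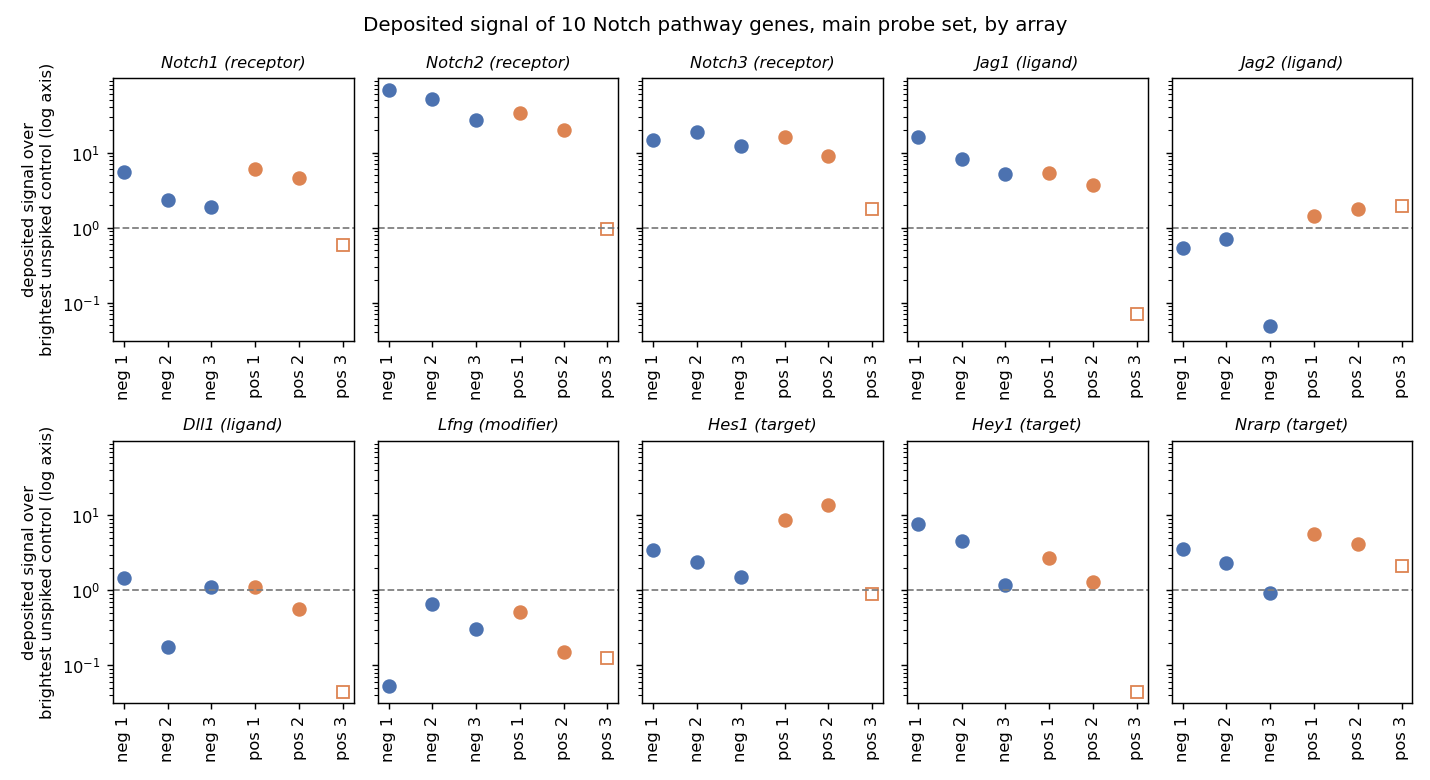
Deposited signal of the main probe set of each of the 10 genes, divided by the brightest unspiked control probe set of the same array, on a log axis; blue points are the negative arrays, orange points the positive arrays, the open square is the dim positive replicate 3 and the dashed line is background. Hes1 stands highest in positive replicates 1 and 2, this Jag2 probe set crosses background in the positive arrays, and Lfng stays below it throughout.

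Promoter sequences of Nrarp, Jag1 and Jag2, which are described below, are shown first as background. Any link between these sequences and the levels measured here was not tested. The RefSeq table of promoter windows, 250 bases before to 50 after each start in assembly GRCm38.p6, held 8 of the 10 genes, all but Hes1 and Hey1. Nrarp encodes a small ankyrin-repeat protein that Notch switches on and that dampens Notch signalling. Its window at chr2:25180508-25180807, plus strand, is written 5′ to 3′ with the palindrome CACGTG, an E-box bound by basic helix-loop-helix proteins, in capitals.

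Nrarp: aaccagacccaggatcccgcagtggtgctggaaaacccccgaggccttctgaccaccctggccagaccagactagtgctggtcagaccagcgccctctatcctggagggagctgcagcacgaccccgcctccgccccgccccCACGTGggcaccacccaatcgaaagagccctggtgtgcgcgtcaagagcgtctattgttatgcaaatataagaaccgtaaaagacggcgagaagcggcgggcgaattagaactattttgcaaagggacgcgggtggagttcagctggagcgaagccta

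CACGTG was found in 7.15% of all 32851 windows and in 2 of the 9 windows of these genes, those of Nrarp and Lfng. TGGGAA, the core letters of the Rbpj motif, was searched on both strands and found in 25.6% of all windows and, of the 9, in that of Lfng alone. A match is only a run of letters in this window. The windows of Jag1 (chr2:137116471-137116770, minus strand) and Jag2 (chr12:112929446-112929745, minus strand) are printed in transcript direction with each CpG in capitals, to show how the starts of these ligand genes differ.

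Jag1: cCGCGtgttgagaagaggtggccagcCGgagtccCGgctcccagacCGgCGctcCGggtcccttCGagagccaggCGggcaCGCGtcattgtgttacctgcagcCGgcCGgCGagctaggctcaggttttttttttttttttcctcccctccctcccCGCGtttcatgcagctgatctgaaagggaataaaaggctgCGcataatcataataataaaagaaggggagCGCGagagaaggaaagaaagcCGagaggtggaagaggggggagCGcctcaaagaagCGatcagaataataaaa

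Jag2: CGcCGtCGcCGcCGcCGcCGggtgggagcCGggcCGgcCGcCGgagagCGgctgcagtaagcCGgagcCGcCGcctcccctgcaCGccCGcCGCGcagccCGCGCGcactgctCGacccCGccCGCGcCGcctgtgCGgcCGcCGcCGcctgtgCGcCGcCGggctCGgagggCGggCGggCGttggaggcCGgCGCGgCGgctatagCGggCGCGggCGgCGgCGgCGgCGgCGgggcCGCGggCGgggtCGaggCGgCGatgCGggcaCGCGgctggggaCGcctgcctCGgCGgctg

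The Jag2 window held 63 CpG dinucleotides and 86.0% G and C, the Jag1 window 22 and 55.7%, and the median window 7 CpG. These are descriptions of the genome and not measurements of these cells.

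Among ligands, both Jag2 probe sets had positive differences, without overlap of the normalized groups, and they differed in where they exceeded background. Jag2 encodes a transmembrane ligand known from stratified epithelia and limb ectoderm. The main one, 1426431_at, is the brighter only through positive replicate 3, and the other outreads it in the other 5 arrays. Its deposited signal was 2.88, 5.88 and 0.10 in the negative arrays, taken here and below in the order of replicates 1, 2 and 3, while the positive arrays read 6.40, 7.72 and 2.15. Divided by background this was 0.54, 0.71 and 0.05 in the negative arrays and 1.43, 1.75 and 1.92 in the positive ones, so for this probe set every positive array and no negative one was above background. The fold between the group means is therefore a bound, with each negative array set at its lowest signal above background. On the normalized scale it was at least 1.96 over the 6 arrays and at least 1.28 over the 5. This bound covers the unmeasured negative signals only and holds no error from the spread between arrays. From the measured means, 5.28 and 4.14, the log2 difference was 1.14 (SE 0.49, adjusted p = 0.770, limma) in the 6 arrays and 0.55 (SE 0.19, adjusted p = 0.395, limma) in the 5, where a pseudocount of 1 in place of 16 gave 2.09. The 6-array value included positive replicate 3, which read 6.59 after normalization against 4.48 and 4.78 in replicates 1 and 2.

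The second Jag2 probe set, 1426430_at, had a difference of the same sign. It read 4.18, 11.47 and 0.45 in the negative arrays and 10.22, 18.42 and 0.84 in the positive arrays, as deposited. Divided by background this was 0.78, 1.39 and 0.22 in the negative arrays and 2.29, 4.18 and 0.75 in the positive ones, so negative replicate 2 was above background and positive replicate 3 was not. The values overlapped as deposited, and after normalization every positive array was above every negative one. The log2 difference was 0.63 (SE 0.30, adjusted p = 0.770, limma) in the 6 arrays and 0.92 (SE 0.26, adjusted p = 0.217, limma) in the 5. Without positive replicate 1 this probe set passed, with a difference of 1.37 (SE 0.28, adjusted p = 0.0236, limma) between positive replicate 2 and the negative arrays.

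Jag1 had a negative difference by its main probe set, and its 3 probe sets disagreed. Jag1 encodes a ligand made by endothelium and by many mesenchymes and epithelia. The probe set 1434070_at read 87.96, 68.49 and 10.68 in the negative arrays, against 23.98, 16.31 and 0.08 in the positive arrays. After normalization all 3 positive arrays, at 5.32, 5.36 and 4.12, lay below the negative arrays at 6.07, 5.52 and 5.54. Jag1 differed by -0.78 (SE 0.42, adjusted p = 0.770, limma) in the 6 arrays and -0.39 (SE 0.32, 95% interval -1.06 to 0.27, adjusted p = 0.829, limma) in the 5.

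The other Jag1 probe sets were near background. The probe set 1421105_at was above background in 1 negative and 2 positive arrays and differed by 0.40 and 0.24 in the 6 and the 5 arrays, opposite to the main one. The probe set 1421106_at was above background in 2 negative arrays and no positive one and differed by -0.01 and -0.30. None of the 3 passed.

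Dll1, a Delta ligand known from somites and the nervous system, was at the edge of detection. Its only probe set read 7.92, 1.46 and 2.27 in the negative arrays and 5.02, 2.52 and 0.05 in the positive arrays. It exceeded background in 2 negative arrays and 1 positive array. The log2 difference was -0.05 in the 6 arrays and 0.06 (SE 0.18, 95% interval -0.32 to 0.44) in the 5, with adjusted p = 0.938 and 0.975 (limma), and its sign turned with several other settings, among them median centring of the 6 arrays. The groups overlapped.

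Of the receptors, Notch1 had a positive difference in both comparisons, as did Notch3 by its main probe set. Notch1 is the receptor best known from endothelium and from the basal cells of epithelia. Its brighter probe set, 1418634_at, read 29.34, 19.51 and 3.78 in the negative arrays and 26.95, 19.98 and 0.65 in the positive arrays, so the deposited signals of the groups overlapped. After normalization over 5 arrays it stood at 5.60 and 5.73 in positive replicates 1 and 2 and at 5.20, 4.75 and 4.74 in the negative arrays. This made a difference of 0.77 (SE 0.28, 95% interval 0.18 to 1.35, adjusted p = 0.465, limma) in the 5 arrays and 0.34 (SE 0.37, adjusted p = 0.802, limma) in the 6, and it was -0.10 in the 6 arrays with signals as deposited. The dimmer probe set, 1418633_at, differed by 0.33 in the 5 arrays and 0.11 in the 6 and was above background in 1 array of either group.

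Notch2 gave deposited readings from 55.67 to 429.0 in the negative arrays. Notch2, a broadly expressed receptor, read 362.8, 429.0 and 55.67 there and 150.9, 88.79 and 1.06 in positive replicates 1, 2 and 3 (probe set 1455556_at). Positive replicate 3 was below its own background for this probe set, while the other 5 arrays were at least 20.1 times above theirs. Normalized over 5 arrays, Notch2 stood at 7.67 ± 0.27 (SD, n = 2) in positive and 7.85 ± 0.23 (SD, n = 3) in the negative arrays, a log2 difference of -0.18 (SE 0.35, 95% interval -0.92 to 0.55, adjusted p = 0.95, limma). The 6-array value of -1.06 (SE 0.67, adjusted p = 0.770, limma) included positive replicate 3 at 4.79. The second probe set, 1451889_at, differed by -0.31 in the 5 arrays and -0.37 in the 6. It was above background in 2 negative arrays and no positive one.

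Notch3, the receptor of vascular mural cells that some mesenchyme and epithelium also express, differed by less than its replicate spread over the 6 arrays. The probe set 1421965_s_at read 78.96, 156.3 and 24.61 in the negative arrays and 72.30, 39.62 and 2.01 in the positive arrays, above background on all 6. Normalized over the 6 arrays it stood at 6.39 ± 0.17 (SD, n = 3) in positive and 6.24 ± 0.25 (SD, n = 3) in negative arrays. Notch3 differed by 0.15 (SE 0.39, adjusted p = 0.920, limma) in the 6 arrays and 0.19 (SE 0.35, 95% interval -0.54 to 0.92, adjusted p = 0.948, limma) in the 5, and its sign turned negative with signals as deposited and with median centring in both comparisons. The other probe set, 1421964_at, differed by -0.04 and -0.01, opposite in sign. The manufacturer's suffix of the brighter one marks probes that can match more than 1 transcript.

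Lfng, a glycosyltransferase that adds sugars to Notch and shifts its response from Jagged to Delta ligands, was not above background. Its 2 probe sets read 0.28 to 5.45 and 0.06 to 0.44 over all 6 arrays, while background ran from 1.12 to 8.28. Both stayed below it on each array and neither was tested. At this signal no difference could be seen.

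**Figure D2:**
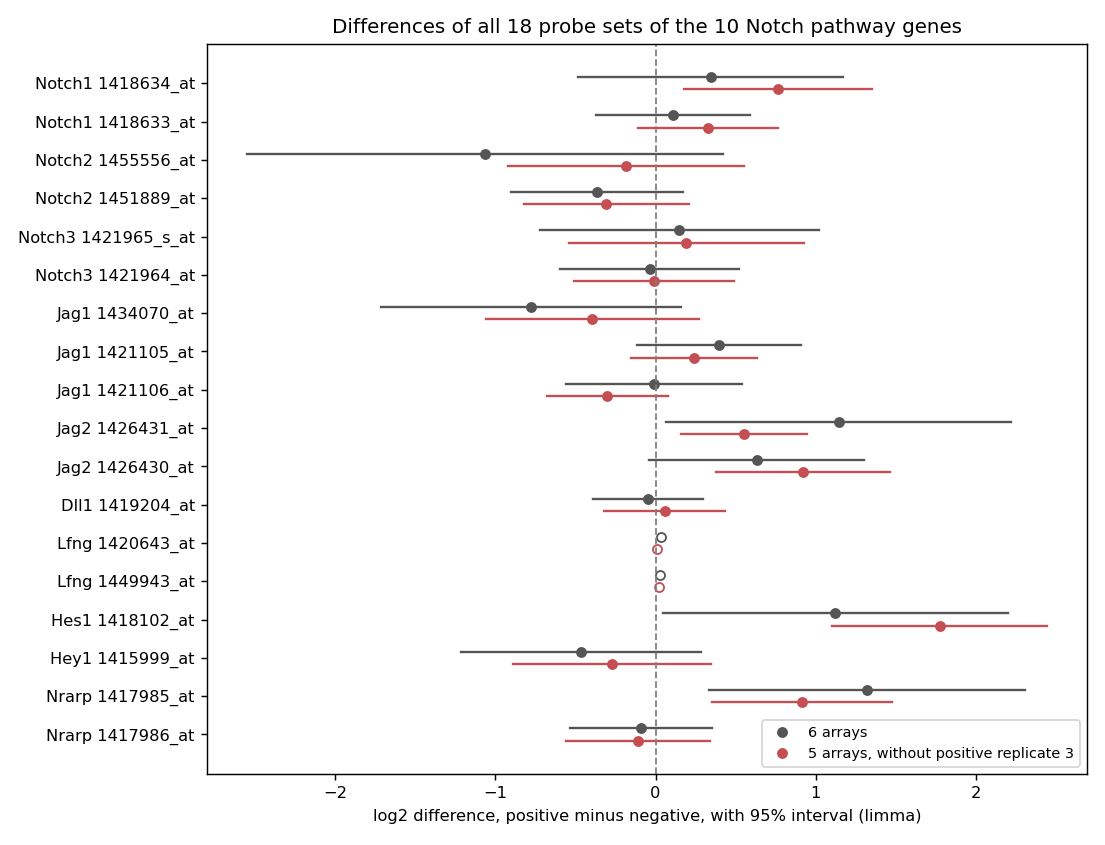
Log2 differences, positive minus negative, of all 18 probe sets with 95% intervals from limma, in grey for the 6 arrays and in red for the 5 arrays without positive replicate 3; open points were not tested. The Hes1 interval lies farthest from 0 in the 5 arrays, and probe sets of Jag1, Notch3 and Nrarp lie on both sides of 0.

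Among targets, Hes1 was highest in positive replicates 1 and 2 already in the deposited signals. Hes1 is a basic helix-loop-helix repressor that Notch switches on in many tissues, and that other signals can also induce. Its only probe set, 1418102_at, read 18.32, 19.69 and 3.04 in the negative arrays, against 38.89, 60.17 and 1.01 in the positive ones. Positive replicates 1 and 2 were above every negative array although their median signal was below that of negative replicates 1 and 2, and positive replicate 3 was below its background of 1.12. Among all probe sets of its own array Hes1 ranked at percentiles 73.4, 70.9 and 65.1 in the negative arrays and at 89.3, 95.1 and 71.8 in the positive arrays. Normalized over 5 arrays it stood at 6.02 and 7.0 in positive replicates 1 and 2 and at 4.86, 4.76 and 4.58 in the negative arrays.

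The Hes1 call depended on single arrays and on the processing. Over the 5 arrays the difference was positive under each of 16 alternatives, from 0.91 to 2.71, and passed in 7 (limma, adjusted p from 7.62e-06 to 0.9998). It missed the threshold without negative replicate 2 (adjusted p = 0.0515, limma), without negative replicate 3 (0.0542) and without positive replicate 2 (0.248, with a difference of 1.35), and the 4 arrays of replicates 1 and 2 are the same arrays as those without negative replicate 3. It also missed it with signals as deposited (a difference of 1.18), with median centring (1.29, adjusted p = 0.868, limma), with no filter (0.123), with no intensity trend (0.127) and with the mean of probe sets (0.0842). No filter, no intensity trend, the brightest probe set and the mean of probe sets cannot change the Hes1 difference itself, only its adjusted p. The summed normalized signal of the epithelial markers was 1230, 3102 and 2884 in positive replicates 1, 2 and 3. Normalized over the 6 arrays, Hes1 stood at 5.83, 6.77 and 4.70 there. Any link between this sum and Hes1 was not tested. Macrophage markers also moved with the fraction: 3 of 6, C1qa, C1qb and Csf1r, were higher in the 5 arrays, and their summed normalized signal was 13.0 to 39.2 in negative arrays and 118.3, 148.2 and 59.0 in positive replicates 1, 2 and 3. Their part in the Hes1 difference was not tested.

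**Figure D3:**
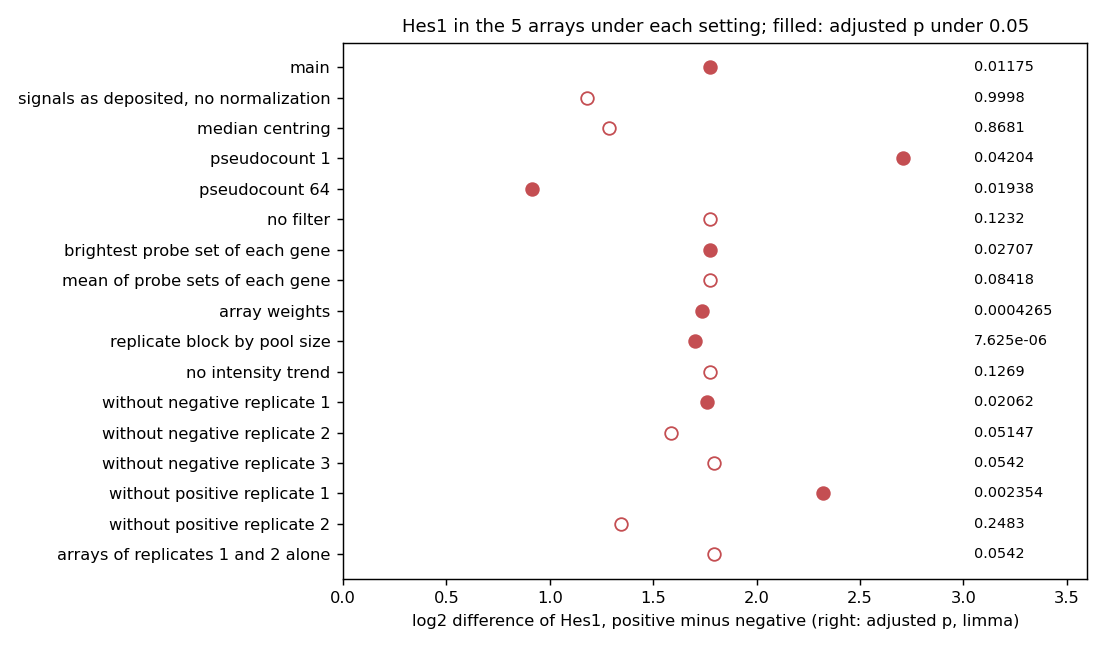
Log2 difference of Hes1, positive minus negative, over the 5 arrays under the main setting and 16 alternatives, with the adjusted p from limma at the right; filled points passed 0.05. All points lie between 0.91 and 2.71, and 7 of the alternatives are filled.

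Nrarp, the feedback target, had a positive difference by its brighter probe set, and its 2 probe sets disagreed. The probe set 1417985_at read 18.98, 19.31 and 1.85 in the negative arrays and 24.85, 18.42 and 2.35 in the positive arrays, where the groups overlapped as deposited. Normalized over the 6 arrays it stood at 5.35, 5.47 and 6.87 in the positive arrays and at 4.77, 4.66 and 4.30 in the negative ones, without overlap. The difference came to 1.32 (SE 0.44, 95% interval 0.34 to 2.30, adjusted p = 0.770, limma) in the 6 arrays and 0.91 (SE 0.27, 95% interval 0.35 to 1.48, adjusted p = 0.254, limma) in the 5. It was 0.08 in the 6 arrays and 0.42 in the 5 with signals as deposited. The dimmer probe set, 1417986_at, exceeded background in 1 negative array only and differed by -0.09 and -0.11.

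Hey1, a repressor of the Hey family known from arterial endothelium and mesenchyme, had a negative difference. Its only probe set read 41.29, 37.78 and 2.41 in the negative arrays and 11.88, 5.62 and 0.05 in the positive arrays. Negative replicates 1 and 2 were well above all positive arrays, while negative replicate 3 lay below positive replicates 1 and 2. After normalization over the 6 arrays it stood at 4.46 ± 0.39 (SD, n = 3) in positive and 4.93 ± 0.48 (SD, n = 3) in negative arrays. Hey1 differed by -0.47 (SE 0.34, adjusted p = 0.770, limma) in the 6 arrays and -0.27 (SE 0.30, 95% interval -0.89 to 0.35, adjusted p = 0.891, limma) in the 5.

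The ratio of probe sets within an array does not move with a linear scaling of that array. Its size is no comparison of the genes, and only its shift between arrays is read here, which shows unequal change. These pairs were picked after the values were seen and have no test. The Hes1 over Hey1 ratio was 0.44, 0.52 and 1.26 in the negative arrays, against 3.27 and 10.7 in the first 2 positive arrays. The Hes1 over Notch2 ratio was 0.050, 0.046 and 0.055 in the negative arrays, nearly level over arrays of unlike brightness, and 0.26 and 0.68 in positive replicates 1 and 2. The Jag2 over Jag1 ratio was 0.033, 0.086 and 0.0094 in the negative arrays, where the main Jag2 probe set was not above background. It was 0.27 and 0.47 in positive replicates 1 and 2. By the other Jag2 probe set it was 0.048, 0.17 and 0.042 in the negative arrays, and 0.43 and 1.13 in positive replicates 1 and 2. Of these negative arrays only replicate 2 had both genes above background. In positive replicate 3 the ratios, with the main Jag2 probe set, were 20.2, 0.95 and 26.9, each with 1 or both genes below background. Those of positive replicate 3 hold unmeasured signals and set no order. The same holds for the Jag2 over Jag1 ratios of the negative arrays, except that of replicate 2 by the other Jag2 probe set.

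**Figure D4:**
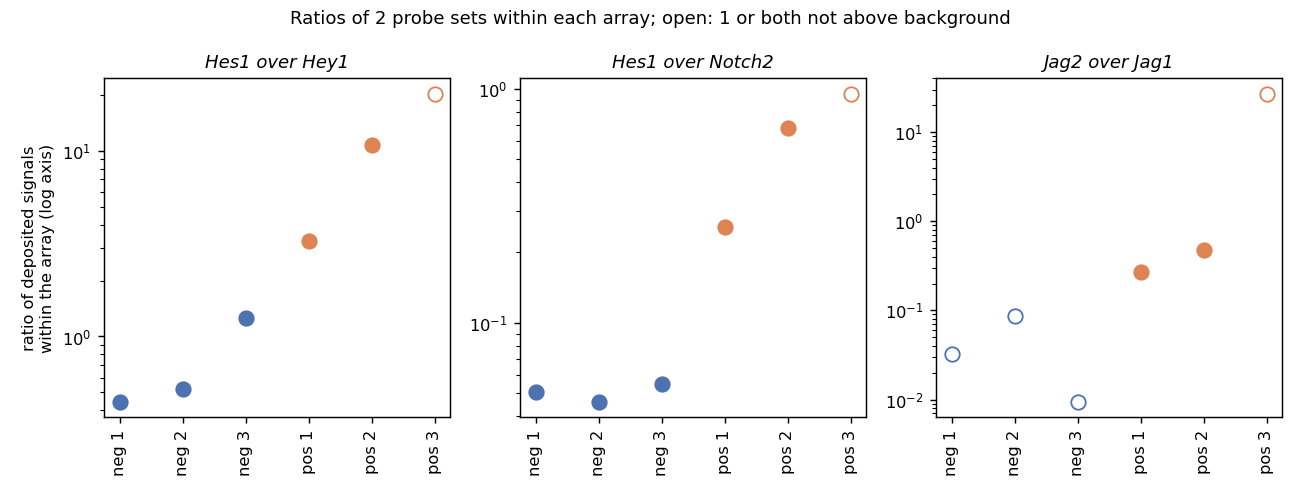
Ratios of deposited signals of Hes1 over Hey1, Hes1 over Notch2 and Jag2 over Jag1 within each array, on log axes, with negative arrays in blue and positive arrays in orange; open points have 1 or both probe sets not above background. The Hes1 over Notch2 ratio stays between 0.046 and 0.055 in the negative arrays and is 0.26 and 0.68 in positive replicates 1 and 2.

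Notch1, Jag1 and Hey1 are also expressed by endothelium. Of the endothelial markers none of the 9 tested, of 11, passed in either comparison (limma; 0 had an unadjusted p under 0.05 in either), the median log2 difference was 0.16 in the 5 arrays, and Pecam1, Tie1 and Sox17 were not above background on any array. Erg and Egfl7 were above background on 5 arrays, Cldn5 and Esam on 4, Kdr and Tek on 3, and Cdh5 and Emcn on 2. The summed normalized signal of the 11 endothelial markers was 45.5 to 53.5 in negative arrays and 80.5, 47.4 and 176.0 in positive replicates 1, 2 and 3. Of 7 mural cell markers none passed (limma; 1 at an unadjusted p under 0.05), with a median of -0.22 in the 5 arrays. Mesenchymal markers had a median of -1.50 and 0 of 8 passed (limma; 7 at an unadjusted p under 0.05), and all 5 measured red cell genes were lower in the 5 arrays (limma, adjusted p under 0.05). What part these cell types had in the levels of Jag1, Hey1 and Notch1 was not tested.

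Elsewhere in the pathway no gene passed. Of 49 further pathway genes 45 could be measured and 41 were tested, each by its brightest probe set. In the 6 arrays 0 were higher and 0 lower (limma; 0 at an unadjusted p under 0.05), and in the 5 arrays also 0 and 0 (limma; 1 at an unadjusted p under 0.05). Their median log2 difference was -0.07 and -0.02, and 20 of 45 had a positive difference in either comparison. Differences are given below for the 5 arrays, for the 2 genes of each group with the largest ones.

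Among other ligands and receptors, the atypical ligands Dner and Dlk1 differed by -0.58 (SE 0.29) and -0.37 (SE 0.36). Dll4 and Notch4, the ligand and receptor of endothelium, differed by -0.04 each. Of the ubiquitin ligases of the Deltex family, Dtx3 differed by 0.50 (SE 0.29) and Dtx4 by -0.43 (SE 0.30). In the gamma-secretase complex, which makes the final cut of the receptor, Aph1a and Psenen differed by 0.40 (SE 0.28) and 0.34 (SE 0.36). In the nuclear complex Rbpj differed by -0.50 (SE 0.35) and the acetyltransferase Kat2b by 0.47 (SE 0.26). In both comparisons all positive arrays lay below all negative ones for Rbpj, and above them for Dtx3 and Aph1a. Of all tested probe sets 12.2% in the 6 arrays and 22.8% in the 5 had groups without overlap. None of the genes named in this paragraph passed.

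Of the remaining Hes and Hey genes Hes6 had the largest difference and the only unadjusted p under 0.05. Hes6, which opposes Hes1 in neural and muscle precursors, stood at 5.98 ± 0.18 (SD, n = 2) in the positive and 5.22 ± 0.31 (SD, n = 3) in negative arrays of the 5, a difference of 0.76 (SE 0.31, adjusted p = 0.542, limma). In the 6 arrays Hes6 differed by 0.34 (SE 0.41, adjusted p = 0.821, limma), and the groups overlapped. Hes2, Hes3 and Hes7 were not above background on any array and were not tested, and Hes3 differed by 0.19. Hey2 and Heyl, above background in 2 arrays each, differed by -0.10 and -0.13.

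**Figure D5:**
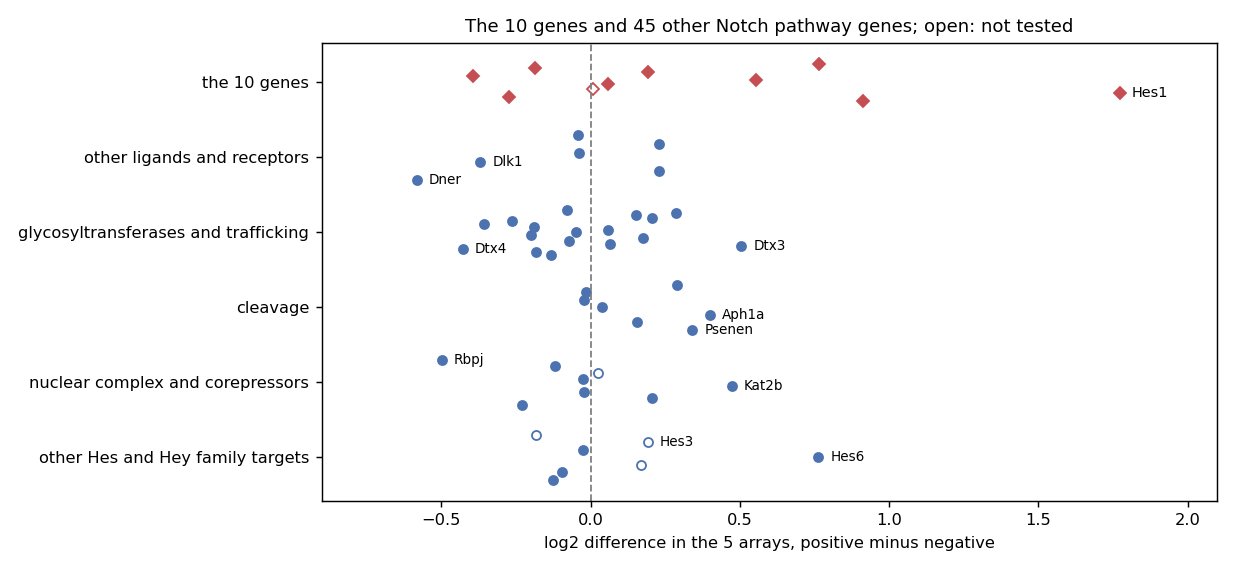
Log2 differences in the 5 arrays, positive minus negative, of the 10 genes (red diamonds, main probe sets) and of 45 other Notch pathway genes in 5 groups (blue points); open symbols were not tested. Hes1 lies at 1.77, and Nrarp at 0.91; the second Jag2 probe set, at 0.92, is not drawn.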

How the data were processed

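Biotin-labelled RNA was hybridized to Affymetrix mouse arrays, per the labels' protocols, and the deposited table of 45101 probe sets holds 1 linear intensity per array. For 1 sample the submitters' processing notes name GCOS; how signals were summarized and scaled is not given in the sources used here. After 64 controls were set aside, signals were quantile normalized, and log2(signal + 16) of probe sets with a mean above the 30th percentile was fitted in limma 3.58.1 (R 4.3.3; lmFit, then eBayes with trend), with Benjamini-Hochberg adjustment over all of them and a threshold of 0.05. Pseudocounts understate changes of dim genes. Of 34945 probe sets annotated to 1 gene, 34741 matched the RefSeq gene table; 932 had several genes and 9160 none. The members, lists and array sets were chosen with earlier results of these data known. Named genes were the members, by every probe set, and, for each other pathway list, genes that passed and the 2 with the largest 5-array difference; Notch4, Dll4, Hes2, Hes7, Hey2, Heyl and the markers were named after their values were seen. Of 6 nerve and glia markers 4 were measured and 0 passed (limma; 0 at an unadjusted p under 0.05). The brightest of 27 unspiked controls was background. The filter, fit and adjustment were run on simulated normalized values with known changes. Normalization and the other steps were not simulated. The labels do not say which arrays share a litter. Titles of the positive and negative array of equal pool size carry consecutive numbers, and whether they came from the same pool is not stated. The p-values are unpaired and measure the spread between these arrays, which may be technical. The number of arrays limits the precision. Alternatives were other scalings, pseudocounts, filters and gene summaries, array weights, a block, no trend and leaving out each array.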

Additional observations from a re-analysis of the deposited data

How the results depend on the processing

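Counts of genes past the threshold changed with the setting. With each gene counted by its main probe set, in the 6 arrays the count was 0 of 10 and rose to 1, Hes1, with array weights (1 probe set). In the 5 arrays it was 1. There 0 genes and 0 probe sets passed with signals as deposited, with median centring, with no filter and with no intensity trend. The same held in the 4 arrays of replicates 1 and 2 (chosen after seeing the data), and 0 genes passed with the mean of probe sets. Of all 31526 tested probe sets 742 passed with array weights in the 6 arrays, against 4 in the main fit. In the 5 arrays 139 of all passed in the main fit and 0 with signals as deposited. Leaving out 1 array gave 0 to 1 genes and 0 to 1 probe sets from the 6 arrays, and 0 to 1 genes and 0 to 2 probe sets from the 5, where the second Jag2 probe set passed beside Hes1 without positive replicate 1. Where that left 1 positive array, it was assumed to vary like the others. With a replicate block by pool size 2 probe sets passed in the 5 arrays (Hes1 at 1.70, and the second Jag2 probe set at 0.84, adjusted p = 0.0211, limma) and 0 in the 6. No array shares that block with negative replicate 3 in the 5 arrays. Of all 31526 tested probe sets 933 passed with the block in the 5 arrays, against 139 without it. Deviations from group means correlated at 0.12, 0.03 and 0.10 between arrays of equal pool size, and at -0.13 to 0.07 between the others. Values this small do not settle whether the replicate numbers are pairs, and the main fits did not pair them.

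With signals as deposited the median log2 difference of all tested probe sets was -0.32 in the 6 arrays and -0.19 in the 5. With median centring it was -0.13 and -0.08. Signs turned for genes with small differences. As deposited, Notch1 was at -0.10, Notch3 at -0.97 and Lfng at -0.078 in the 6 arrays, and Notch3 at -0.32 and Lfng at -0.040 in the 5. With median centring Notch3 was at -0.78 and Dll1 at 0.10 in the 6 arrays, and Notch3 at -0.21 in the 5. Dll1 was at 0.12 with array weights and at 0.13 in the 4 arrays. Leaving out 1 array gave Dll1 -0.13 to 0.058 and Lfng -0.022 to 0.075 from the 6 arrays, and Dll1 -0.052 to 0.14, Lfng -0.058 to 0.076 and Notch2 -0.38 to 0.0058 from the 5. The cause was not tested. Hes1, Jag2, Nrarp, Jag1 and Hey1, by their main probe sets or the mean of probe sets, kept their signs under each alternative in both comparisons. Some alternatives could not turn a sign. No filter, the brightest probe set and no intensity trend leave the difference as it was. So do the block in the 6 arrays and, for Hes1 and Hey1 with 1 probe set each, the mean of probe sets.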
